A study of Mus musculus with 12 samples.

Results

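The plakin genes Dst, Macf1, Plec, Dsp, Ppl and Evpl were examined for open chromatin in mouse myoblasts with and without the transcription factor Runx1. From the wild-type (WT) and Runx1 knockout (KO) lists, each peak centred inside 1 of these genes or at most 10 kb outside it was taken. This gave 48 of the 34118 WT peaks and 29 of the 27187 KO peaks, at 6 of 21631 protein-coding genes. The genes were chosen by earlier results on these same lists, in which no protein-coding gene had more WT specific peaks than Dst. The counts of specific peaks below are therefore descriptions, and they carry no test.

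The cells were C2C12, an established mouse myoblast line, either WT or Runx1KO, grown at day 0 in medium that held 20% fetal bovine serum. Each of these groups had 3 samples, among 12 samples in 4 groups. ATAC-seq marks open chromatin by the cuts that the Tn5 transposase makes in isolated nuclei. How the knockout was made, and whether it is a single clone, is not given in the sources used here. Every peak name carries the label of replicate 1, and the values were read as those of 1 library per genotype, so differences between genotypes have neither a replicate error nor a test. Whether replicates 2 and 3 had a part in choosing which calls were kept is not given in the sources used here, so "specific" means only absence from the other list. Sequencing depth is unknown. At the genes of the labelled cell type, Myod1 and Des each had 2 peaks in either list, all shared. Pax7 had 1 WT specific peak, and Myf5 had no peak in either list.

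Plakins are large proteins that tie the filaments of the cytoskeleton to one another and to junctions. The spectraplakins dystonin (Dst) and microtubule actin crosslinking factor (Macf1) bind actin and microtubules, and plectin (Plec) anchors intermediate filaments, in muscle at the Z-discs and the sarcolemma. Loss of dystonin causes dystonia musculorum in mice, and plectin mutations cause skin blistering with muscular dystrophy. Desmoplakin (Dsp) fastens intermediate filaments to desmosomes, and periplakin (Ppl) and envoplakin (Evpl) are components of the cornified envelope of epithelia.

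Most plakin peaks lay at the spectraplakins and plectin, which are also the longest of these genes. Dst, Macf1 and Plec held 42 of the 48 WT peaks, 39 of them inside the genes, and 24 of the 29 KO peaks, 22 of them inside. Dsp, Ppl and Evpl together held 6 WT peaks and 5 KO peaks. Only 1 of these 11 peaks lay inside its gene, a WT specific peak in Ppl. The genes differ in size: Dst spans 401 kb, Macf1 338 kb, Plec 60.4 kb, Dsp 47.3 kb, Ppl 46.2 kb and Evpl 17.6 kb. Per 100 kb of gene and flanks, Plec had the densest WT peaks, with 14.9, against 6.04 at Ppl, 5.23 at Dst, 2.66 at Evpl, 2.23 at Macf1 and 1.49 at Dsp.

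A peak was WT specific or KO specific when no peak of the other list overlapped it by at least 1 bp, and shared otherwise. Distances from a peak to a gene are taken from the peak centre unless an edge is named, and those between peaks from edge to edge. Of the 48 WT peaks at plakin genes, 20 (41.7%) were WT specific, beside 27.3% of the whole WT list. Of the 29 KO peaks, 1 (3.45%) was KO specific, beside 9.59% of the whole KO list. Where the overlap had to cover at least 50% of the peak, 4 of 29 KO peaks (13.8%) counted as KO specific, beside 14.9% of the whole KO list, with 1 each added at Macf1, Plec and Dsp. By that rule 22 of 48 WT peaks (45.8%) were WT specific, beside 30.1% of the whole WT list. Dst supplied 12 of the 20 WT specific peaks, Plec 4, and Macf1 and Ppl 2 each. Without Dst the WT specific share was 30.8% (8 of 26). Of the 6 genes, 4 held a WT specific peak, beside 25.3% of all protein-coding genes. Dst and Macf1 are among the 557 protein-coding genes of at least 300 kb, of which 301 held a WT specific peak.

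**Figure D1:**
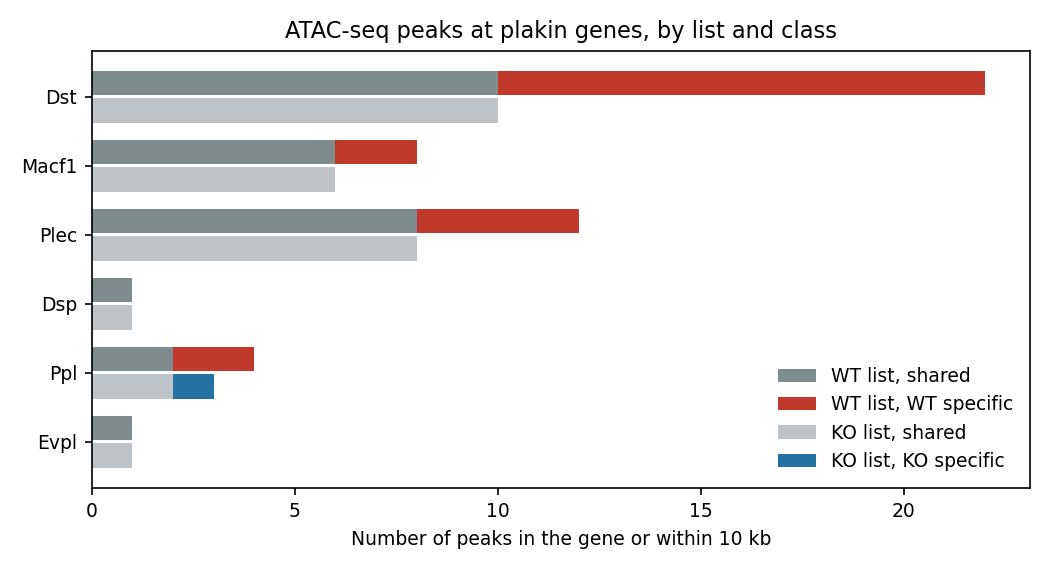
Bars give the number of ATAC-seq peaks (horizontal axis) at each plakin gene and its 10 kb flanks (vertical axis), in the WT list and the KO list, split into shared and specific peaks. At Dst 12 of 22 WT peaks are specific and all 10 KO peaks are shared, and the single KO specific peak lies beside Ppl.

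The shares varied with position and strength. Inside protein-coding genes and more than 1 kb from a gene end, 31.3% of all WT peaks were WT specific, and 18 of the 39 plakin peaks there were. Specific peaks were mostly weak ones. The deposited −log10 q, the significance that the authors' peak caller gave each peak, had a median of 7.53 over the 20 WT specific plakin peaks and 28.9 over the 28 shared ones. Below the median −log10 q of the WT list (16.1), 17 of 24 plakin peaks were WT specific, beside 48.5% of all WT peaks. At or above that median, 3 of 24 were (12.5%), beside 6.17% of all WT peaks. WT specific plakin peaks had a median width of 218.5 bp, and shared ones of the WT list 541 bp. The whole WT list had the same contrast. Its specific peaks had a median −log10 q of 8.38 and a median width of 250 bp, and its shared ones 21.1 and 424 bp.

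Dst lies on chromosome 1 from 33907888 to 34308662 (GRCm38). It had 22 WT peaks and 10 KO peaks, and every KO peak was shared. All 12 WT specific peaks lay inside the gene, and none lay within 1 kb of a gene end. Among the 557 protein-coding genes of at least 300 kb, the median was 2 WT peaks and 1 WT specific peak. The table of gene positions has no exons, so exons and introns were not told apart.

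The 3 shared Dst peaks with the highest WT −log10 q were all internal. The peak at chr1:34127755-34128379 had a deposited fold enrichment (fold) of 20.4 and a −log10 q of 86.8 in the WT list, and 14.9 and 64.0 in the KO list. Its centre also lies in the long noncoding RNA gene Gm51742. The peak at chr1:33989596-33989989 had a fold of 20.0 and a −log10 q of 62.9 in WT, and 16.9 and 51.1 in KO. The peak at chr1:34073836-34074222 had a fold of 14.3 and a −log10 q of 30.8 in WT, and 10.7 and 22.1 in KO. These 3 sites were open in both libraries.

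Of the 12 WT specific Dst peaks, 5 had a −log10 q above 10. The strongest, at chr1:34060625-34060842, had a fold of 11.04 and a −log10 q of 20.6, which ranked 433 among the 9318 WT specific peaks of the genome. The peak at chr1:34236277-34236621 had a fold of 9.63 and a −log10 q of 15.7, and lay 49907 bp from the nearest KO peak. Those at chr1:34120028-34120338, chr1:34094331-34094567 and chr1:34005721-34005920 had a −log10 q of 13.7, 13.0 and 11.8. The other 7 ranged from 2.69 to 7.96. All but the strongest lay below the median −log10 q of the WT list.

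Several of these peaks sat close together or beside a shared peak. A run of 4 WT specific peaks, from chr1:34111047-34111309 to chr1:34121236-34121559, had no shared peak between its members. In the whole WT list, 198 of 6515 such runs had at least 4 members, and the longest had 8. The WT specific peak at chr1:34094331-34094567 lay 197 bp from a KO peak, chr1:34094765-34095539, whose WT partner starts at 34094953. The 2 lists thus draw the edges of that site differently. It was the only one of the 12 within 500 bp of a KO peak.

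Gaps in the peak numbers were also described. Peak numbers rise along the chromosome, and a number skipped between neighbours was taken as a call that the list does not hold. Between the first and the last shared peak of Dst, the WT numbering ran over 26 calls, of which 21 were retained, and the KO numbering over 23 calls, of which 10 were retained. The numbered calls therefore differed by 3 and the retained peaks by 11. Those 11 are WT specific peaks already counted above, and Dst was chosen with that count known. The difference in retained peaks is thus no separate evidence. Beside 11 of the 12 WT specific Dst peaks at least 1 KO number was skipped between the flanking KO peaks. In the stretch that holds the run of 4, 4 KO numbers were skipped. The exception was chr1:33964722-33964884, with a fold of 5.79, where no KO number was skipped. Where in a stretch a skipped call lay, and by what rule it was not retained, is not known. For all 6 genes, 18 of 20 WT specific peaks lay beside a skipped KO number, beside 87.1% of all WT specific peaks with a KO peak on either side. Over the whole lists, 61.6% of the WT numbers and 55.6% of the KO numbers were retained.

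**Figure D2:**
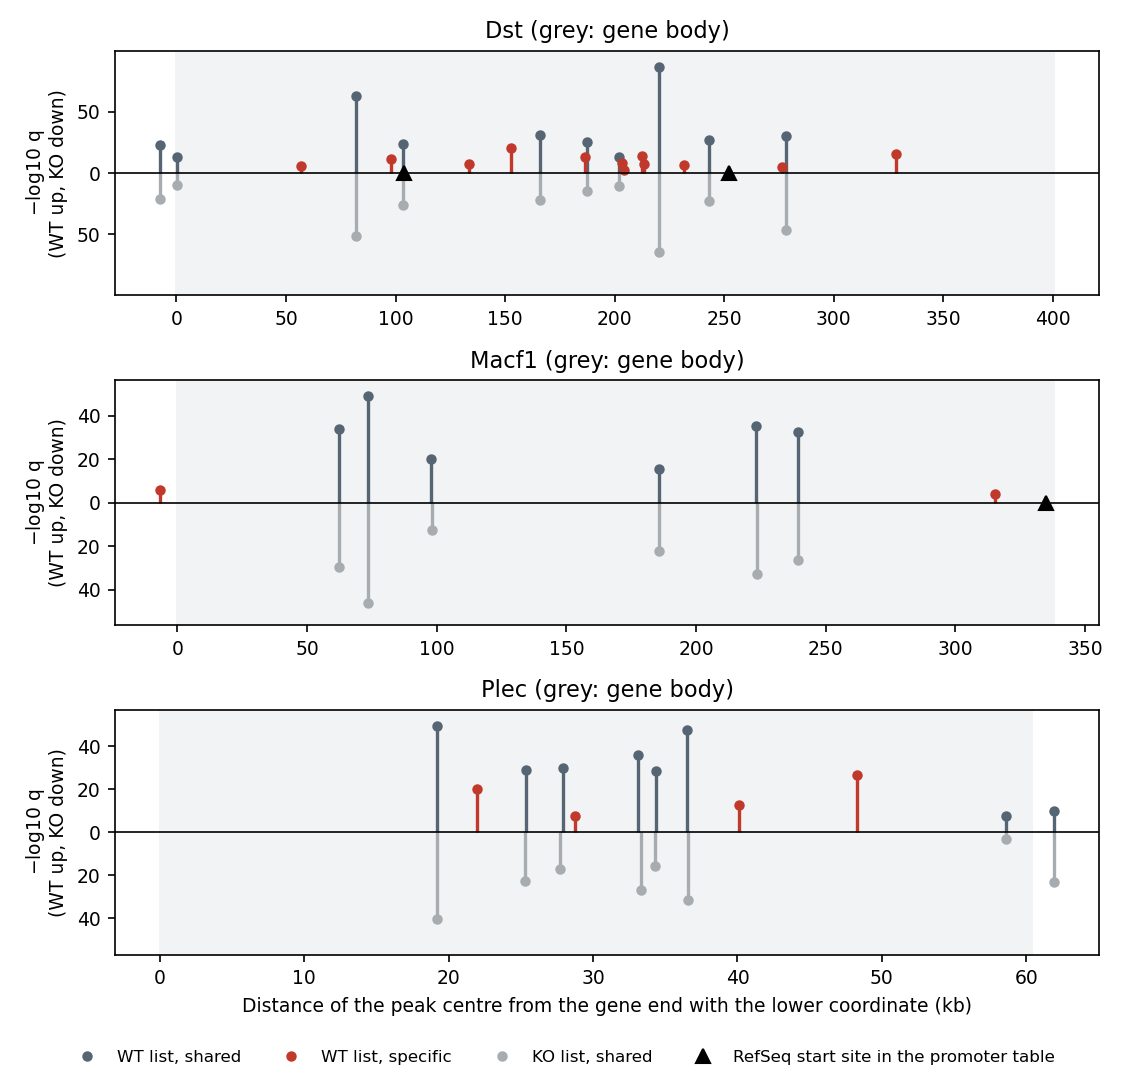
Each stem is a peak, placed by the distance of its centre from the lower-coordinate end of the gene (kb, horizontal axis), with the deposited −log10 q (vertical axis) drawn upwards for the WT list and downwards for the KO list. The WT specific peaks of Dst lie among the shared ones and are low, while Plec has a WT specific stem of 26.7. Black triangles mark the listed RefSeq start sites, which do not include the 5′ ends of Dst and Macf1.

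The RefSeq promoter table of assembly GRCm38.p6 gave start sites for Dst, Macf1 and Dsp. For Dst and Macf1 these do not include the 5′ end of the whole gene. Dst, on the plus strand, begins at 33907888, and its first listed start is 34011595. Macf1, on the minus strand, begins at 123687802, and its listed start is 123684360. The 250 bases before each start are shown because the start sites differ in whether a peak covers them. They are written 5′ to 3′ along the gene's own strand, and capitals mark a match to 1 of the 5 motifs searched.
Dst, first listed start, chr1:34011345-34011594, plus strand: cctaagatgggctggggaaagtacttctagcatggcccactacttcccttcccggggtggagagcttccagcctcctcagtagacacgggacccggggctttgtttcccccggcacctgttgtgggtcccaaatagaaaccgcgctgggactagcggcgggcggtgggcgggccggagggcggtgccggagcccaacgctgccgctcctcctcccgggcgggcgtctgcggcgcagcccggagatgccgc
Dst, second listed start, chr1:34160010-34160259, plus strand: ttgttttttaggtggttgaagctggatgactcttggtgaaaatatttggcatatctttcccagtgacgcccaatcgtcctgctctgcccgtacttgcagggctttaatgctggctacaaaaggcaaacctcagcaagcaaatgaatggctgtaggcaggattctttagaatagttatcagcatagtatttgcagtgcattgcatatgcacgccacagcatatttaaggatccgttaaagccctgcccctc
Macf1, chr4:123684361-123684610, minus strand: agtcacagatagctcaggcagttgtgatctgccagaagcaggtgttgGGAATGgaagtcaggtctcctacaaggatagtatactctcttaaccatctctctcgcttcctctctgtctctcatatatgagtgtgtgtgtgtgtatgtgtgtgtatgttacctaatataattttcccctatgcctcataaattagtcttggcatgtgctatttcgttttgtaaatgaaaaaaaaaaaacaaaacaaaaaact
Dsp, chr13:38151044-38151293, plus strand: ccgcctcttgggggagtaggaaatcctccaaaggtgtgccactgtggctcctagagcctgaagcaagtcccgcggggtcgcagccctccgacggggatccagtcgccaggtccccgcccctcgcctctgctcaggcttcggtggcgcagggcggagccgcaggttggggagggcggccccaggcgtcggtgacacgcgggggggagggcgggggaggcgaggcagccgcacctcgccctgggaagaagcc

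Of these 4 promoters, which leave out the 5′ ends of Dst and Macf1, the first Dst promoter was the only one under a peak. The shared WT peak chr1:34011056-34011640 (fold 11.1, −log10 q 23.5) covered all 250 bases, and its KO partner chr1:34011050-34011588 (fold 10.4, −log10 q 26.3) covered 244. That promoter has 68.8% G and C and 22 CpG dinucleotides. The second Dst promoter has 45.2% and 5, and the nearest peak edge was 9.24 kb from its start in WT and 9.26 kb in KO. The Macf1 promoter has 38.4% and 2, and the nearest peak edge was 17.5 kb away in WT and 33.6 kb away in KO. Between the WT peaks that flank the Macf1 start no WT number was skipped, and between the KO peaks 3 were. The Dsp promoter is as rich in CpG as the first Dst promoter (72.4% G and C, 22 CpG), and the nearest peak edge was 53.5 kb away in both lists, with 3 numbers skipped in each. Medians over all 32851 promoters of the table were 52.4% and 6 CpG.

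The 5 motifs were searched on both strands of these 250 bases: the RUNX core TGTGGT, the E-box CAGCTG, the AP-1 site TGANTCA, the TEAD site GGAATG and the ETS core CCGGAA. They were found in 14%, 13%, 6.75%, 12.6% and 12% of all promoters in the table. The single match in the 4 plakin promoters was a TEAD site in the Macf1 promoter, at −203 from the start on the plus strand of the printed sequence. These counts describe letters in a short window and say nothing of binding.

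The lower-coordinate end of Dst, which is its 5′ end and has no listed start, had a separate shared peak. It lay at chr1:33907652-33908190, with a fold of 7.42 in WT and 5.75 in KO and a −log10 q of 13.4 and 9.48. In the WT list its centre falls where Dst and the neighbouring gene Bend6 overlap, and both promoters listed for Bend6, on the opposite strand, overlap the peak. The shared peak at chr1:33900207-33900453, inside Bend6, was the farthest from its plakin gene of all those counted, at 7.56 kb (fold 11.4 in WT and 9.67 in KO). The first peak beyond the 10 kb limit at any of the 6 genes was a shared WT peak 12.03 kb from Plec, chr15:76243331-76243485, with a fold of 4.64 and a −log10 q of 5.84.

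Macf1, the other spectraplakin, lies on chromosome 4 from 123349633 to 123687802. It had 8 WT peaks and 6 KO peaks, and 6 of the WT peaks were shared. The strongest, at chr4:123422801-123423242, had a fold of 16.4 and a −log10 q of 48.9 in WT, and 13.8 and 46.3 in KO. The peak at chr4:123572493-123573293 had a fold of 12.3 in WT and 10.8 in KO. That at chr4:123411793-123412489 had a fold of 11.4 in WT and 9.79 in KO. It overlaps an end of the gene D830031N03Rik, which sits inside Macf1, and its centre is 230 bp from that end. All 6 shared sites had a −log10 q above 12 in both lists.

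Both WT specific peaks at Macf1 were weak. The one at chr4:123664601-123664819 lay in the gene, with a fold of 4.66 and a −log10 q of 4.20. The other, at chr4:123342778-123343056, had a fold of 5.20 and a −log10 q of 5.86. It lay outside Macf1 and inside Bmp8a, with its centre 335 bp from an end of Bmp8a. A further WT specific peak, chr4:123701886-123702188 (fold 9.94, −log10 q 16.2), lay 14.2 kb from Macf1 and so was not counted. Inside the gene Macf1 thus had 1 WT specific peak, where Dst had 12. Between the first and last shared peak of Macf1, 6 of 9 WT numbers and 6 of 10 KO numbers were retained.

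By counts of shared, WT specific and KO specific peaks, the genes most like Dst (10, 12 and 0) were Lrmda (10, 10 and 0), Gpc6 (10, 7 and 0) and Rad51b (9, 9 and 1). Their summed differences from Dst were 2, 5 and 5. All of them are longer, from 551 to 1055 kb. The 3 counts of Macf1 (6, 2 and 0) were also those of 15 other genes. The first of these by name were 1700011L22Rik, Arid1b and Bahcc1, with lengths of 38.2, 353 and 59.4 kb.

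Plec, on chromosome 15 from 76170974 to 76231378, is known for many alternative first exons. It had 12 WT peaks and 8 KO peaks, and all 8 KO peaks were shared. The strongest shared peak, chr15:76189862-76190449, had a fold of 10.5 and a −log10 q of 49.6 in WT, and 9.16 and 40.2 in KO. At chr15:76207195-76207770 the fold was 6.37 and the −log10 q 47.5 in WT, and 5.49 and 31.5 in KO. At chr15:76203656-76204509 it was 5.16 and 36.1 in WT, and 4.55 and 27.1 in KO. Every WT number from the first to the last shared peak was retained (12 of 12), while 8 of 13 KO numbers were.

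The 4 WT specific Plec peaks included the strongest specific peak of the family. It lay at chr15:76219186-76219358, with a fold of 13.3 and a −log10 q of 26.7, and ranked 126 among the 9318 WT specific peaks. The nearest KO peak was 10073 bp away, and 3 KO numbers were skipped around it. The peak at chr15:76192852-76193013 had a fold of 4.76 and a −log10 q of 20.2, and ranked 475. The peak at chr15:76211001-76211214 had 4.52 and 12.9. The widest, chr15:76199427-76199969, had a fold of only 2.72 and a −log10 q of 7.67, and lay 356 bp from a KO peak. All 4 lay inside the gene, more than 10 kb from either end.

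The Plec peaks had low folds for their significance. Among the 7627 WT peaks with a −log10 q from 25 to 50, the median fold was 13.4, and 7 of them lay in Plec with a median of 5.21. A fold under 6.5, a limit set after the values were seen, was found in 20 of the 7627 peaks, and 5 of these 20 were in Plec. In the KO list 24 of 6689 such peaks had a fold under 6.5, and 2 of the 3 Plec peaks in that range were among them. The low folds were thus present in both libraries. In the WT list they filled a stretch of the gene: all 8 peaks from chr15:76192852-76193013 to chr15:76211001-76211214 had folds from 2.72 to 6.37. The peaks on either side of that stretch had 10.5 and 13.3. At Dst and Macf1 the median folds in the same range were 13.6 and 12.4 in the WT list.

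**Figure D3:**
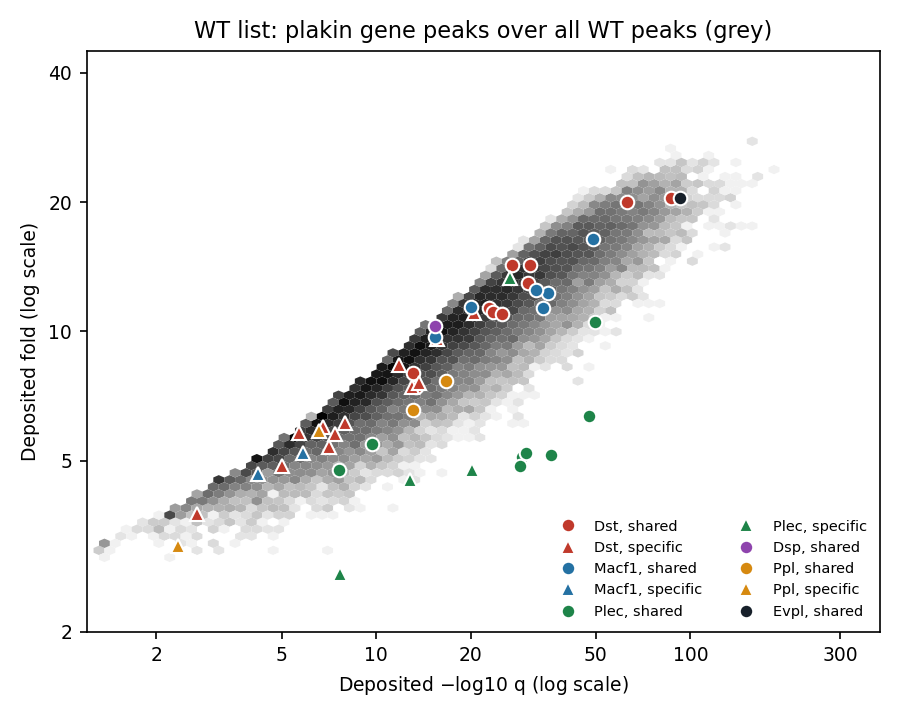
Deposited fold (vertical axis, log scale) against deposited −log10 q (horizontal axis, log scale) in the WT list, with all peaks as grey density and plakin gene peaks in colour (circles shared, triangles WT specific). Most plakin peaks follow the cloud, while Plec peaks with a fold near 5 and a −log10 q near 30 fall below it.

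Dsp, Ppl and Evpl, genes of epithelial junctions and envelopes, had 1, 4 and 1 WT peaks, beside a median of 1 over all protein-coding genes. At Dsp, on chromosome 13 from 38151294 to 38198577, neither list held a peak inside the gene. Its single counted peak, chr13:38204794-38205041, was shared, with a fold of 10.3 in WT and 11.5 in KO. That peak spans the start of the neighbouring gene Snrnp48, 4 bp from its centre, and overlaps the promoter listed for Snrnp48. Evpl, on chromosome 11 from 116220559 to 116238165, also had no internal peak. The shared peak beside it, chr11:116218578-116219267, was the most significant of all plakin peaks, with a fold of 20.4 and a −log10 q of 92.8 in WT and 16.3 and 73.8 in KO. It lies 1.64 kb outside Evpl, within the transcribed pseudogene Cdk3.

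Ppl, on chromosome 16 from 5086291 to 5132481, had 4 WT and 3 KO peaks, most of them outside the gene. The shared peak chr16:5136070-5136838 had a fold of 6.58 in WT and 5.08 in KO, and that at chr16:5139849-5140051 had 7.67 and 6.001. The WT specific peak inside the gene, chr16:5113642-5113876, had a fold of 5.88 and a −log10 q of 6.58. The other, chr16:5137137-5137322, had 3.17 and 2.34, and lay 427 bp from a KO peak. The KO specific peak, chr16:5085314-5085518, had a fold of 8.13 and a −log10 q of 11.4. It lies in the gene Ubn1, 873 bp from the end of Ubn1 that adjoins Ppl.

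The 28 shared plakin peaks each had a single partner. The folds are enrichments within each library and depend on its depth, so a ratio between lists shows no change at a site by itself. The KO fold was under the WT fold in 24 of the 28 pairs, and in 72.1% of all 24800 shared pairs. The median KO to WT ratio was 0.821 at plakin genes and 0.872 over all pairs, or −0.28 and −0.20 on the log2 scale. The middle 50% of all pairs ran from −0.41 to 0.03, which includes the plakin median. By gene, the KO fold was the lower one in 9 of 10 pairs at Dst, 5 of 6 at Macf1, 7 of 8 at Plec, 2 of 2 at Ppl, 1 of 1 at Evpl and 0 of 1 at Dsp.

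The pairs varied within each gene. At Dst the ratio went from 0.676 at chr1:34094953-34095521 (11.01 in WT, 7.44 in KO) to 1.11 at chr1:34186111-34186341 (13.0 in WT, 14.4 in KO). At Macf1 it went from 0.695 at chr4:123446890-123447630 (11.4 and 7.91) to 1.18 at chr4:123535251-123535745 (9.72 and 11.5). The first of these overlaps its KO partner by only 181 bp. At Plec it went from 0.677 at chr15:76229525-76229653 (4.76 and 3.22) to 1.51 at chr15:76232653-76233175 (5.47 and 8.24). The centre of the latter lies 1.54 kb outside Plec and 81 bp from an end of Parp10, and the peak overlaps that end. Its ratio was above 97.4% of all pairs.

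**Figure D4:**
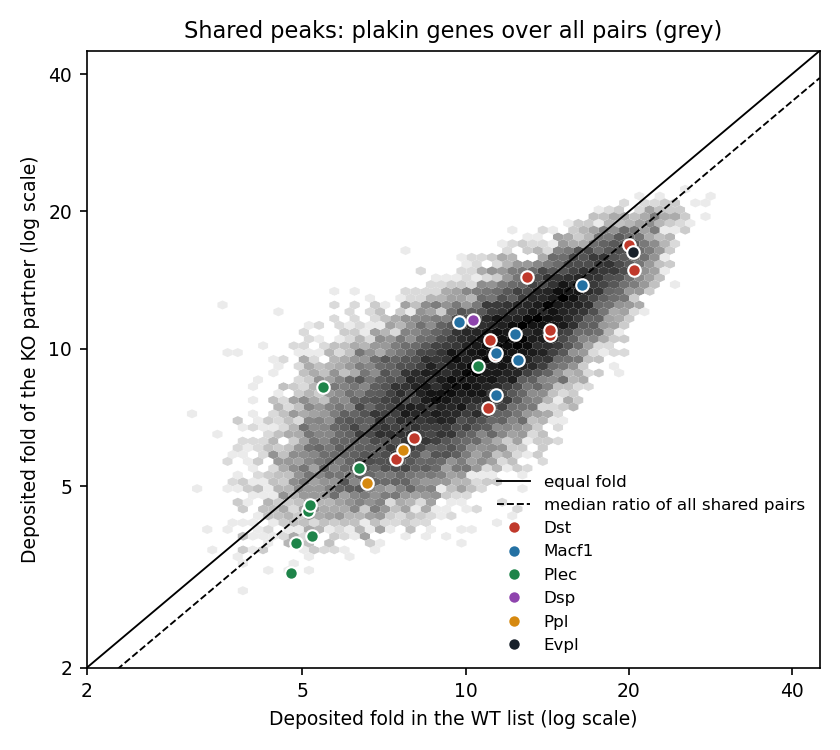
Deposited fold of the KO partner (vertical axis, log scale) against the deposited fold of the WT peak (horizontal axis, log scale) for shared peaks, with all 24800 pairs as grey density and the 28 pairs at plakin genes in colour. The plakin pairs lie within the cloud, 24 of them below the line of equal fold.

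Genes whose products work with plakins were taken from a list of 47: another plakin, intermediate filament proteins, nuclear envelope linkers, microtubule end factors, hemidesmosome and desmosome components, and spectrin and actin linkers. All 47 were matched, and 43 had a peak, beside 14224 of the 21631 protein-coding genes. Together 41 of their 179 WT peaks (22.9%) were WT specific, beside 27.3% of the whole WT list, and 9 of 145 KO peaks (6.21%) were KO specific, beside 9.59% of the whole KO list. Epiplakin (Eppk1), the other plakin gene, had 2 peaks in each list, all shared. Intermediate filament genes had 2 WT specific peaks among 25, nuclear envelope linker genes 6 among 35, desmosome genes 3 among 19 and hemidesmosome genes 1 among 7. Microtubule genes had 13 among 26, and spectrin and actin linker genes 16 among 65. The 9 KO specific peaks were 4 at microtubule, 3 at spectrin and actin linker and 2 at hemidesmosome genes. No test sets these shares apart from each other.

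The 7 related genes with at least 3 specific peaks, counted over both lists, encode microtubule end proteins and membrane skeleton proteins. Of 4 WT peaks at Mapre3, 3 were WT specific, and Mapre2 had 3 among 5. Both are members of the family of microtubule end-binding proteins. Ank2 had 4 among 9 and Ank3 had 3 among 10, both ankyrins, which join membrane proteins to spectrin. Sptbn1, a beta spectrin, had 3 among 7. Clasp1 and Clasp2, which stabilise microtubule plus ends, each had 2 WT specific peaks among 3. Clasp1, Clasp2, Mapre2, Sptbn1, Ank2 and Ank3 each had 1 KO specific peak, and Mapre3 had none.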

How the data were processed

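The 5 deposited peak lists cover WT and Runx1KO C2C12 cells in growth medium. Samples of day 2 were left out because the lists do not cover them. The layout is narrowPeak, without a header. The submitters' processing notes name the build mm10. The aligner, the peak caller, the filters, and the treatment of the Tn5 offset, duplicates and mitochondrial reads are not given in the sources used here, and each can change the number and edges of peaks. The fold (a fold enrichment, over a background that is not described) and the −log10 q of each peak are the authors' deposited values. They were used as they stand.

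Members and lists of genes were chosen with earlier results of these data known. Gene positions and promoters came from RefSeq tables of GRCm38.p6, the same build as mm10. Peaks were assigned by their centre, and shared peaks were paired with the partner of largest overlap. The classes in the deposited specific and shared lists were the same as those from an overlap of 1 bp, for all 9318, 24800 and 2607 peaks. Peaks named are all specific ones (at over 5 of a class in a gene, the 5 with the highest −log10 q), the 3 shared peaks with the highest WT −log10 q, and the largest and smallest ratio at genes with at least 5 shared peaks. Related genes were named at 3 specific peaks over both lists, and the 3 genes most like Dst by the sum of count differences. Python 3.11.15, numpy 2.4.6, pandas 2.3.3, scipy 1.17.1 and matplotlib 3.10.9 were used. Overlap and window functions were tested on simulated data and against bedtools 2.31.1, and 5 of 5 checks passed.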

Additional observations from a re-analysis of the deposited data

How the results depend on the processing

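The WT specific share at plakin genes (41.7%) was between 30.8% and 47.4% under the alternatives in overlap, window, assignment and position and without Dst, which was added after seeing the data. For gene bodies, the nearest gene end and centres in no other gene's window, no whole-list share by the same rule is at hand. The range therefore describes the raw share and not its distance from the whole list. The WT specific share was 12.5% in the stronger part of each list, at its median −log10 q or higher, beside 6.17% of all WT peaks there. At a −log10 q of at least 10, a limit added after seeing the data, it was 23.5%. No share of the whole WT list is at hand for that limit, and the 27.3% of the unfiltered list is not its background. Both limits remove weak peaks, which held most of the specific ones. The KO specific share (3.45%) was 0% in that stronger part, in gene bodies only, by the nearest gene end and for centres in no other protein-coding gene's window, because the single KO specific peak drops out. For none of these settings is a share of the whole KO list at hand. Requiring 50% of a peak to be overlapped gave 13.8%. The 12 WT specific peaks of Dst were 7 by the nearest gene end, 5 at a −log10 q of at least 10 and 1 in the stronger part. The median log2 ratio of the shared pairs (−0.28) was −0.09 relative to all pairs and −0.23 without Dst. Of 96 counts for single genes under 8 alternatives, 75 were within 1.5 times the reported count and 21 were not. Most of those 75 were counts of 0 that stayed 0, so the total says little about the other counts. Over the alternatives, the WT specific count went from 0 to 3 at Macf1, from 0 to 2 at Ppl and from 2 to 5 at Plec. Leaving out replicates was not run, since only replicate 1 is named in the lists. No paired analysis was possible because each genotype has 1 list, named for replicate 1. The depth behind the peaks is unknown, which limits every count of specific peaks.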

Other observations

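The lists of specific peaks have an additional column with no name, which repeats the peak start in some rows and is otherwise empty. It was filled for 2 of the 20 WT specific plakin peaks, chr1:34120028-34120338 and chr1:34236277-34236621, both in Dst. In the whole WT specific list it was filled for 993 of 9318 peaks (10.7%). It was empty for the KO specific peak at Ppl, and filled for 58 of 2607 KO specific peaks in all (2.22%). What the column stands for is not stated.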
